A study of Mus musculus with 14 samples.

Results

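Btg4 and 9 genes of the CCR4-NOT deadenylase complex (Cnot1, Cnot2, Cnot3, Cnot4, Cnot6, Cnot6l, Cnot7, Cnot8 and Cnot10) were followed in RNA-seq counts from single mouse oocytes. These 10 genes were taken by name from the 24064 in the count table, for their part in the clearance of maternal mRNA. The study deleted Kdm1a (Lsd1), a histone demethylase gene, in the female germline. The mutant oocytes (mko/mko) came from females with floxed Kdm1a on a mixed B6;129 background, in which cre driven by the Zp3 promoter, active in growing oocytes, removes the first exon. The control oocytes were wt/wt oocytes of strain C57BL/6J and an f/f oocyte of the mixed B6;129 background, from a female with the floxed alleles and no cre. The labels give no other treatment and no age. The 14 libraries were summed by oocyte name to 10 oocytes, which were 4 wt/wt (wt1, wt3, wt4 and wt5), 1 f/f (C3) and 5 mutant (D1, D2, D3, D4 and D7). C3, D3, D4 and D7 had 2 libraries each, which the descriptions number as separate oocytes, so the sum rests on the shared name, and values with each library as its own sample are given where they changed the call of a member. The labels do not say which females the oocytes came from, so the tests measure the spread between these oocytes.

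The CCR4-NOT complex shortens poly(A) tails, which is the first step in the decay of most mRNAs. CNOT1 is its scaffold, CNOT2 and CNOT3 form the NOT module, and CNOT10 belongs to a module at the N-terminal end of the scaffold. Its nucleases are of 2 types, the CCR4 type (CNOT6 and CNOT6L) and the CAF1 type (CNOT7 and CNOT8). CNOT4 is a RING E3 ubiquitin ligase that associates with it. A growing oocyte stores long-lived mRNAs and stops transcription before ovulation. BTG4, a protein of the BTG/TOB family, is made as meiosis resumes and joins the CAF1-type nuclease to mRNAs, so that much of the maternal store is removed around fertilization. Part of this machinery is itself held as dormant mRNA, which is activated by lengthening of its own poly(A) tail through cytoplasmic polyadenylation elements in the 3′ UTR.

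The 3′ ends of the members are shown because the cDNA was primed on poly(A) and because these elements lie there. The last 150 bases of 1 annotated transcript per gene were searched on the sense strand for TTTTAT and TTTTAAT, and the last 50 bases for the polyadenylation signals AATAAA and ATTAAA. The last letters of TTTTAAT can be the first of AATAAA, so an element and a signal can overlap. Of 9 members with a complete annotated 3′ end, 3 had an element (Btg4 with 2, Cnot1 and Cnot3 with 1 each) and 6 had a signal. Of 19692 genes of the table with such a transcript, 22% had an element and 72.4% had a signal. The elements are in capitals in the windows of Btg4 at chr9:51119797-51119826 on the plus strand, Cnot1 at chr8:95719504-95719533 on the minus strand and Cnot3 at chr7:3661075-3661104 on the plus strand (GRCm38, which is mm10, with GENCODE transcripts matched to RefSeq). The other element of Btg4, farther from the end, lies outside the window shown, and in Cnot3 the signal AATAAA is in capitals as well.
Btg4: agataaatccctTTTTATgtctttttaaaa
Cnot1: aagatgtattgaTTTTATatatgtgagtac
Cnot3: atttatgAATAAAtagTTTTATatgacggc
Cnot8 has no such 3′ end and was not searched. In the 3 nuclease genes searched only the signal was found, and it is in capitals in the windows of Cnot6 at chr11:49671509-49671538, Cnot6l at chr5:96070340-96070369 and Cnot7 at chr8:40492550-40492579, all on the minus strand. Each of these 6 windows lies within 1 exon.
Cnot6: tcatagccaaccAATAAAttcaatatctgt
Cnot6l: ttccctgtaggcAATAAAtggccattttgc
Cnot7: aaagcttttgtaAATAAAggcttcaaaaat
A match describes the letters of the annotated end and does not show that a site is used. Because the cDNA was primed on poly(A), a change in the amount of an mRNA and a change in the length of its tail cannot be told apart in these counts.

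Levels are given as CPM, counts per 1000000 of a library total adjusted by TMM, a scaling that sets most genes level between oocytes. The wt/wt oocytes had 1375187 to 1892015 counts with TMM factors of 1.30 to 1.36, and the others had 2016701 to 6928548 counts with factors of 0.652 to 0.952, so depth and composition moved with the group. A level at the floor of 3 counts stood for 0.455 to 1.82 CPM, and the amount of RNA per oocyte was not measured. Kdm1a had 27 to 85 counts in wt/wt oocytes (12.1 to 38.7 CPM), 669 in C3 (148 CPM) and 0 to 10 in mutant oocytes (log2 fold change -5.02, adjusted p = 0.0011). Of 15 oocyte markers, 14 or 15 had a count in each oocyte, and their summed level was 20173 to 35298 CPM in wt/wt, 56830 in f/f and 57282 to 114905 in mutant oocytes. Of the 15, 10 were called higher (66.7%), beside 14.7% of all genes tested. Of 15 markers of cumulus and granulosa cells, 8 had no count in any oocyte (Amh, Fshr, Foxl2, Inha, Inhba, Tnfaip6, Ptx3 and Hsd17b1), and their summed level was 25.1 to 67.9 CPM in wt/wt, 64.2 in f/f and 81.4 to 149 in mutant oocytes. Most of that sum was Cyp19a1, at 37.7 CPM in control and 105 in mutant oocytes (called higher), while Nr5a2 was at 8.12 and 2.70 CPM (not called), Has2 had 23 and 1 counts and Gja1 18 and 2. The part of either list in the results on the members was not tested. Strain and the series of library names separate the wt/wt oocytes from all others, so that between wt/wt and mutant oocytes they cannot be told apart from genotype. C3 is the only control that shares both with the mutant oocytes.

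Between control and mutant oocytes, 3 of the members changed, and all 3 lay apart without overlap of the groups. Cnot3, of the NOT module, was higher in mutant oocytes, while Cnot6 and Cnot6l, the pair of CCR4-type nucleases, were lower. Btg4, both CAF1-type nucleases and the other subunits tested were not called. The call needed both an adjusted p under 0.05 and a change of 1 or more on the log2 scale in either direction (edgeR's quasi-likelihood test, Benjamini-Hochberg over 9198 genes). Of all genes tested, 25.9% were called, 14.7% as higher and 11.2% as lower in mutant oocytes, and in 16.2% the groups did not overlap. Of the members, 9 were tested, and Cnot10 had too few counts. The median log2 fold change was -0.06 over the 9 members and 0.17 over all genes tested. Scaling to library totals alone moved the latter to -0.22 and the higher genes from 56.7% to 36.7% of all calls, so each change here is relative to TMM. With all oocytes thinned to the lowest total count, the same 3 members were called (log2 fold change 3.27 with an adjusted p of 0.00335 for Cnot3, -1.65 with 0.0356 for Cnot6 and -1.02 with 0.0276 for Cnot6l).

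**Figure D1:**
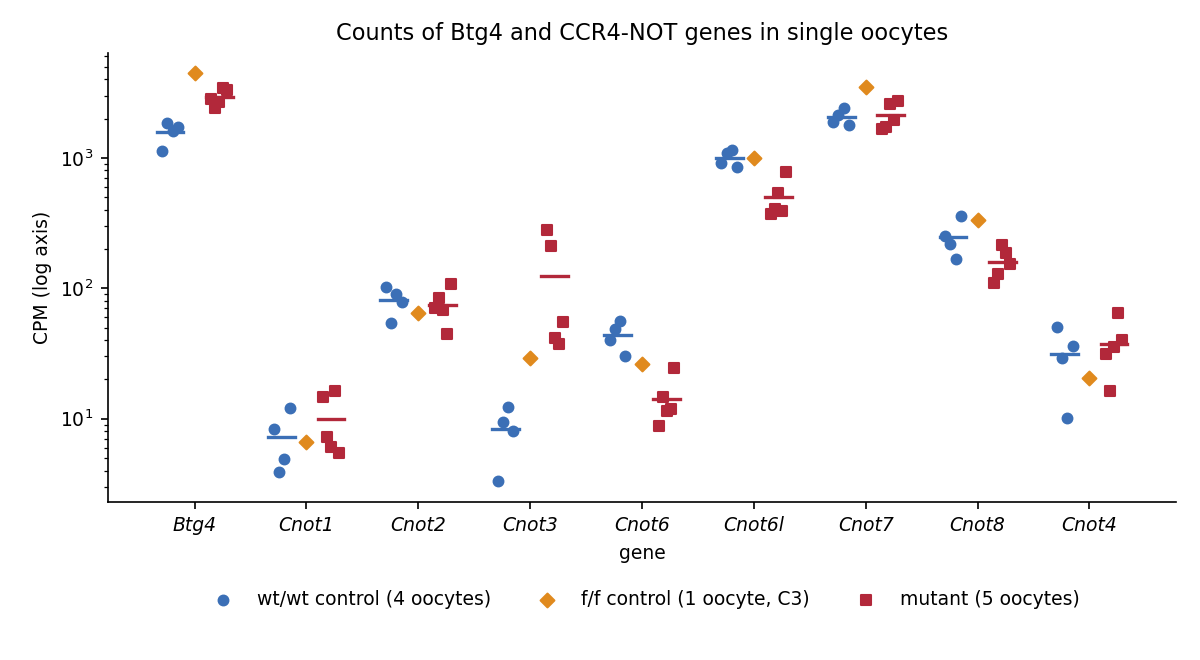
Level in CPM on a log axis of the 9 members tested, with 1 symbol for each of 4 wt/wt oocytes (circles), the f/f oocyte C3 (diamonds) and 5 mutant oocytes (squares), and a bar for the mean of the wt/wt and of the mutant oocytes. Cnot3 is higher, and Cnot6 and Cnot6l are lower, in each mutant oocyte than in any control oocyte, while Btg4 is highest in C3.

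**Figure D2:**
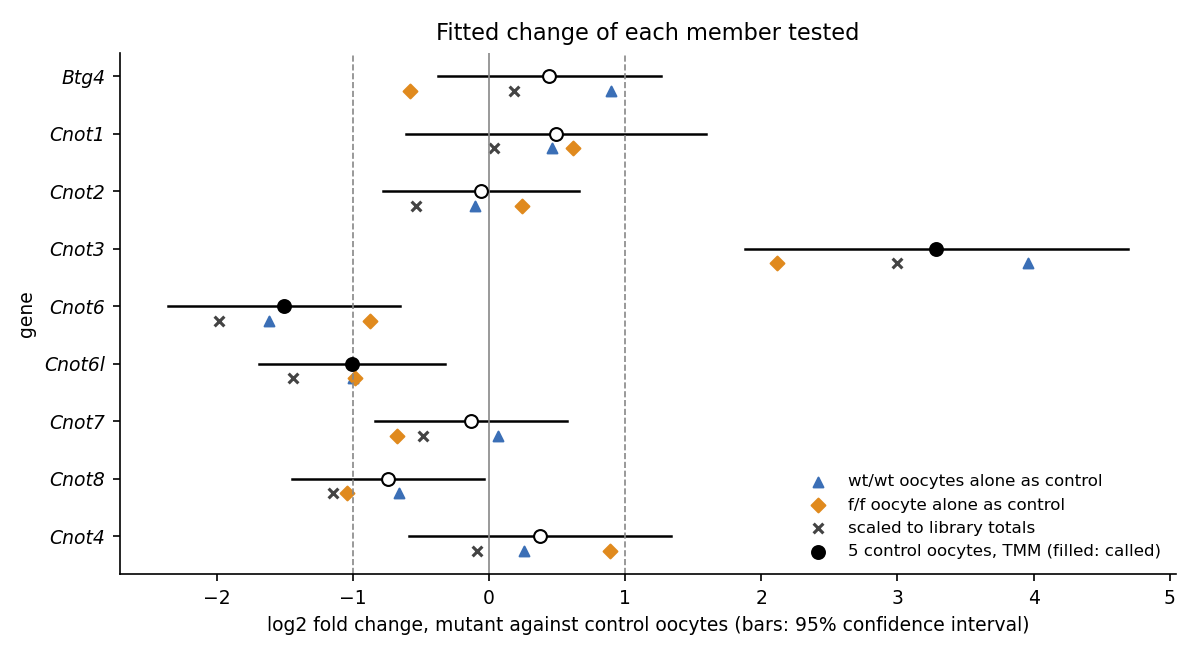
Fitted log2 fold change (mutant minus control) for each member tested, with its 95% confidence interval (filled where called, dashed lines at a log2 fold change of 1 in either direction), and the estimate with wt/wt oocytes alone, with the f/f oocyte alone or with library totals. Cnot3 is at 2.12 or above and Cnot6 and Cnot6l are at -0.87 or below under each of these, whereas Btg4 takes either sign.

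Btg4, the adaptor, lies on chromosome 9 from 51060901 to 51119875. It had 1134, 1862, 1597 and 1727 CPM in the wt/wt oocytes and 4459 CPM in C3. The mutant oocytes, always given here from D1 to D7, had 2811, 2427, 2700, 3437 and 3286 CPM. Each mutant oocyte lay above each wt/wt oocyte and below C3, so the groups overlapped through C3 alone. The log2 fold change was 0.44 (standard error 0.39, 95% confidence interval -0.38 to 1.26, adjusted p = 0.418). Against the wt/wt oocytes alone it was 0.90 with an adjusted p of 0.0228, under the size set for a call, and against C3 alone it was -0.58 (adjusted p = 0.546). The coefficient of variation was 20.01% among wt/wt and 14.3% among mutant oocytes. Btg4 overlaps Layn, 4833427G06Rik, Mir34b and Mir34c on the other strand, which had 0 counts in each oocyte.

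Among the subunits that hold the complex together, Cnot3 rose and the scaffold gene and Cnot2 were not called. Cnot3 is on chromosome 7 from 3645268 to 3661109 on the plus strand. It had 6, 22, 30 and 18 counts in the wt/wt oocytes, 132 in C3 and 514, 345, 117, 245 and 110 in the mutant oocytes. In CPM the wt/wt oocytes had 3.31, 9.47, 12.2 and 8.06, C3 had 29.2, and the mutant oocytes had 281, 210, 41.6, 37.2 and 54.7. C3 was the highest control, and D1 and D2 stood well above the other mutant oocytes (mean 125 CPM ± 113, SD, n = 5). The log2 fold change was 3.29 (standard error 0.67, adjusted p = 0.00288), a 9.76-fold higher level in mutant oocytes. It was 2.12 against C3 alone, where the control is 1 oocyte, 3.96 without C3 (adjusted p = 0.000854) and 2.80 without D1 (adjusted p = 0.0104).

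The end of Cnot3 overlaps that of Leng1 on the opposite strand by 1012 bases (chr7:3660098-3661109), and the strand of the counting is not given in the sources used here. Leng1 had 15, 5, 24 and 7 counts in the wt/wt oocytes, 72 in C3 and 463, 242, 83, 160 and 80 in the mutant oocytes. It followed the same order as Cnot3 among the groups, with D1 and D2 highest and every mutant oocyte above every control (log2 fold change 3.61, standard error 0.71, adjusted p = 0.00253). Of the 49-base words in the Cnot3 transcript, 32.3% also occur in transcripts of Leng1 or of the pseudogene Gm9207, and 49 bases is the length of the reads. Which of the pair the reads came from was not tested, and the Cnot3 count is uncertain to that extent.

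**Figure D3:**
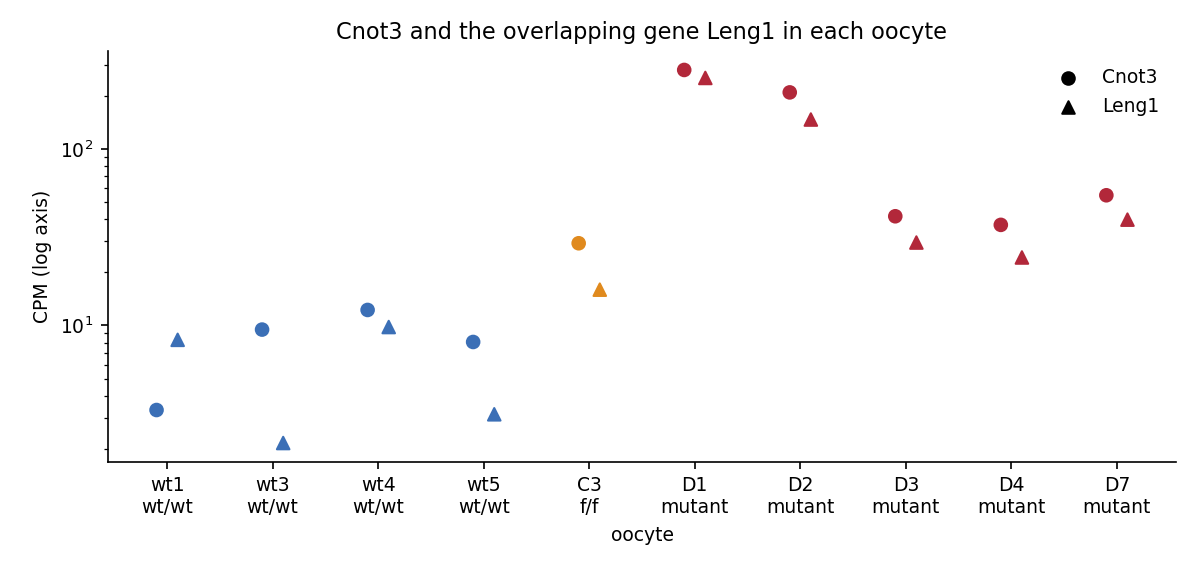
Level in CPM on a log axis of Cnot3 (circles) and Leng1 (triangles) in each of the 10 oocytes, coloured by group. Both are highest in D1 (281 and 253 CPM) and D2 (210 and 147 CPM), and both are higher in each mutant oocyte than in any control oocyte.

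Cnot1, the scaffold, was low in these counts, with 8.28, 3.87, 4.90 and 12.1 CPM in the wt/wt oocytes, 6.64 in C3 and 14.8, 7.29, 6.04, 16.4 and 5.47 in the mutant oocytes. The groups overlapped (log2 fold change 0.49, 95% confidence interval -0.61 to 1.6, adjusted p = 0.510). Its transcript is long (8390 bases) while the amplified cDNA reaches at most 3 kb from the poly(A) tail. Of the 49-base words in those 3 kb, 25.6% also occur in the pseudogene Gm6158, where reads without a unique alignment were dropped. Cnot2 had 102, 53.8, 89.7 and 78.8 CPM in the wt/wt oocytes, 64.2 in C3 and 70.0, 83.9, 67.9, 44.6 and 107 in the mutant oocytes. Its groups overlapped over most of their range, with a log2 fold change of -0.06 (95% confidence interval -0.78 to 0.66, adjusted p = 0.917).

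Both CCR4-type nucleases fell in mutant oocytes. Cnot6, on chromosome 11 from 49671503 to 49712723, had 39.8, 48.6, 55.9 and 30.4 CPM in the wt/wt oocytes, 26.4 in C3 and 8.75, 14.6, 11.4, 11.8 and 24.4 in the mutant oocytes. C3 was the lowest control and D7 the highest mutant oocyte, and the groups did not overlap. In counts, the control oocytes had 68 to 137 and the mutant oocytes 16 to 78. The log2 fold change was -1.50 (standard error 0.40, adjusted p = 0.0136), a 2.84-fold lower level in mutant oocytes. It was -1.61 without C3 (adjusted p = 0.00661) and -0.87 against C3 alone (adjusted p = 0.516).

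Cnot6l, on chromosome 5 from 96070333 to 96164171, is the abundant member of the pair. It had 919, 1099, 1142 and 848 CPM in the wt/wt oocytes, 1002 in C3 and 374, 408, 536, 394 and 781 in the mutant oocytes. C3 lay within the wt/wt range, each mutant oocyte lay below every control, and D7 was the mutant oocyte nearest to them. The log2 fold change was -1.01 (standard error 0.32, 95% confidence interval -1.69 to -0.32, adjusted p = 0.0310), a 2.01-fold lower level in mutant oocytes. The estimate sits at the size set for a call, and the call was lost in 14 of 22 alternatives, in which the log2 fold change still lay below 0. With C3 alone as control it was -0.98 (adjusted p = 0.371), and with each library as its own sample -0.97 (adjusted p = 0.00629, under the size set). Without wt1 it was -1.04 (adjusted p = 0.0525), without wt3 -0.97 (0.0616), without wt4 -0.96 (0.0657), without C3 -0.999 (0.0184), without D1 -0.92 (0.0685), without D2 -0.95 (0.0583) and without D4 -0.92 (0.0586).

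The CAF1-type nucleases, which BTG4 binds, were not called. Cnot7 had 1881, 2150, 2408 and 1773 CPM in the wt/wt oocytes, 3472 in C3 and 1677, 1738, 2572, 1964 and 2726 in the mutant oocytes. The mutant oocytes lay on both sides of the wt/wt oocytes and all below C3 (log2 fold change -0.13, 95% confidence interval -0.84 to 0.58, adjusted p = 0.800). Cnot7 overlaps Zdhhc2, with 12 counts over all oocytes, and Vps37a, with 1892 (log2 fold change -0.83, adjusted p = 0.0664), on the other strand. Cnot8 had 251, 217, 168 and 360 CPM in the wt/wt oocytes, 331 in C3 and 109, 128, 214, 187 and 155 in the mutant oocytes. Of the 5 mutant oocytes, 3 lay below every control. Its log2 fold change was -0.74 (95% confidence interval -1.45 to -0.04, adjusted p = 0.110), and -1.14 with an adjusted p of 0.0268 when scaled to library totals.

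Cnot4, the ubiquitin ligase, had 50.2, 29.3, 10.2 and 35.8 CPM in the wt/wt oocytes, 20.6 in C3 and 31.2, 16.4, 35.2, 65.1 and 40.3 in the mutant oocytes. The groups overlapped (log2 fold change 0.38, 95% confidence interval -0.58 to 1.34, adjusted p = 0.570), and scaled to library totals the estimate was -0.09. Cnot10, of the N-terminal module, had 18 counts in all, with 4, 0, 0 and 1 in the wt/wt oocytes, 1 in C3 and 1, 1, 1, 9 and 0 in the mutant oocytes. Most of these are at or under 3 counts, so a difference was not detectable at this depth.

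Levels of different genes were compared per length, as CPM per kb of the longest transcript, at most 3 kb, in the 4 wt/wt oocytes. The order was Btg4 (1063 ± 213 CPM per kb, SD, n = 4), Cnot7 (684 ± 95), Cnot6l (334 ± 47.0), Cnot8 (119 ± 38.7), Cnot2 (27.4 ± 6.89), Cnot6 (14.6 ± 3.67), Cnot4 (10.5 ± 5.54), Cnot3 (2.76 ± 1.24), Cnot1 (2.43 ± 1.24) and Cnot10 (0.221 ± 0.350). Among these 10 genes, the adaptor and 3 nucleases stood above the subunits that are not nucleases. Of the 9 pairs of neighbours in this order, 4 did not overlap between oocytes, which were Cnot7 above Cnot6l, Cnot6l above Cnot8, Cnot8 above Cnot2 and Cnot1 above Cnot10. Btg4 and Cnot7 overlapped, as did the neighbours from Cnot2 to Cnot1. Without wt4, 7 of the pairs did not overlap. The order rests on the limit of 3 kb, since per kb of the whole longest transcript Cnot6l was at 117 CPM per kb, beside 119 for Cnot8, and Cnot6 to 7.62, beside 7.96 for Cnot4. In mutant oocytes the first 4 places were the same and Cnot3 moved from place 8 to place 5, with 41.6 ± 37.7 CPM per kb (SD, n = 5).

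The make-up of the complex was compared as ratios of counts within an oocyte, which do not depend on scaling. The ratio of CCR4-type to CAF1-type counts (Cnot6 plus Cnot6l to Cnot7 plus Cnot8) was 0.450, 0.485, 0.465 and 0.412 in the wt/wt oocytes, 0.270 in C3 and 0.214, 0.226, 0.196, 0.189 and 0.280 in the mutant oocytes. All mutant oocytes lay below all wt/wt oocytes, and C3 lay among the mutant oocytes. The ratio was 1.86-fold lower in mutant than in control oocytes (two-sided exact permutation p = 0.0159, adjusted p = 0.0397 over 5 ratios). The ratio of Btg4 to the 9 Cnot genes was 0.348, 0.516, 0.410 and 0.549 in the wt/wt oocytes, 0.90 in C3 and 1.10, 0.931, 0.775, 1.26 and 0.844 in the mutant oocytes. It was 1.87-fold higher in mutant oocytes (exact permutation p = 0.0238, adjusted p = 0.0397), with C3 again among the mutant oocytes. Btg4 to Cnot7, the adaptor to its main partner nuclease by count, was 0.603 to 0.974 in wt/wt oocytes, 1.28 in C3 and 1.05 to 1.75 in mutant oocytes, 1.64-fold higher (exact permutation p = 0.0238, adjusted p = 0.0397).

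Within the nuclease pairs the differences did not pass. Cnot6l to Cnot6 was 20.4 to 27.7 in wt/wt oocytes, 37.8 in C3 and 27.4 to 46.4 in mutant oocytes (1.38-fold higher, exact permutation p = 0.0556, adjusted p = 0.0556). Cnot7 to Cnot8 was 4.93 to 14.3 in wt/wt oocytes, 10.5 in C3 and 10.5 to 17.6 in mutant oocytes (1.53-fold higher, exact permutation p = 0.0556, adjusted p = 0.0556). With 252 groupings of 5 and 5 oocytes, the smallest p that this test can give is 0.00794. In each of the 3 ratios that passed, C3 lay within the range of the mutant oocytes, and with 1 f/f oocyte a difference between f/f and mutant oocytes could not be tested in this way. With single oocytes left out, CCR4 type to CAF1 type still passed only without wt4, C3 or D3, and both Btg4 ratios only without C3 or D3 (adjusted exact permutation p 0.0529 to 0.0926 without each other oocyte). Cnot6l to Cnot6 passed without C3 (adjusted p = 0.0298) and Cnot7 to Cnot8 without wt4 (adjusted p = 0.0397).

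**Figure D4:**
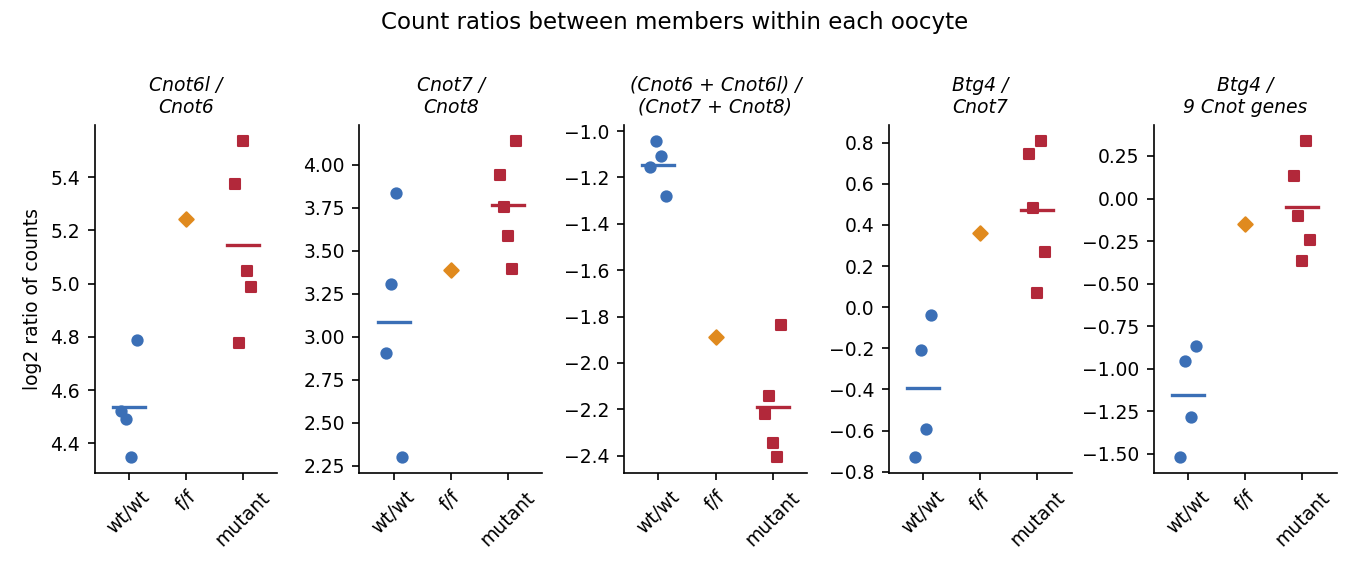
Log2 ratio of counts between members in each oocyte, with 1 panel per ratio and its own vertical axis, for wt/wt (circles), f/f (diamond) and mutant oocytes (squares), with bars for the means of the wt/wt and mutant oocytes. In the 3 panels on the right the wt/wt oocytes lie apart from the mutant oocytes, and the f/f oocyte lies within the mutant range.

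As shares of the counts of the 9 Cnot genes, Cnot7 made up 58.9% ± 2.39 (SD, n = 4) in wt/wt oocytes, 70.1% in C3 and 69.6% ± 3.58 (SD, n = 5) in mutant oocytes. Cnot6l made up 28.7% ± 1.5, 20.2% and 16% ± 2.32 in the same groups. Cnot3 made up 0.102% to 0.314% in wt/wt oocytes, 0.590% in C3 and 1.19% to 11% in mutant oocytes, where the highest shares were those of D1 (11%) and D2 (8.04%). The summed level of the 9 Cnot genes was 3476 ± 340 CPM in wt/wt oocytes, 4952 in C3 and 3054 ± 600 in mutant oocytes. In the 4 oocytes with 2 libraries, the libraries differed by at most 0.39 on the log2 scale for Btg4, Cnot6l, Cnot7 and Cnot8, as shares of library totals, and by up to 1.57 for other members with over 20 counts in both. The library with DNA in its name was the higher of each pair for Cnot1, Cnot2, Cnot4, Cnot6 and Cnot6l. Its excess was 0.21 to 0.39 for Cnot6l and 0.28 to 2.03 for Cnot6, where 2.03 rests on 12 and 20 counts in D3. The wt/wt oocytes, D1 and D2 have no such library. With these libraries left out, the log2 fold change was -1.62 for Cnot6 and -1.07 for Cnot6l. The cause of the difference was not tested.

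The other genes of mRNA deadenylation and decay were taken from 8 lists. Of 78 tested, 11 rose and 12 fell in mutant oocytes, that is 23 or 29.5% called beside 25.9% of all genes tested (26 with each library as its own sample, and 14 without D1, 15 without wt3 or wt4, 36 without C3, beside 1607, 1738, 1718 and 2885 called of all genes without these oocytes), and their median log2 fold change was 0.01. By list the median was -0.24 for the exosome, -0.23 for nucleotidyl transferases, -0.10 for recruiters of the complex, 0.04 for other deadenylases, 0.50 for other subunits of the complex, 0.60 for decapping, 1.03 for other BTG/TOB proteins and 1.39 for proteins that bind poly(A) tails. Of the other subunits of the complex, Tnks1bp1, which encodes a protein that binds it, fell from 147 to 43.6 CPM (log2 fold change -1.75, adjusted p = 0.00257). Cnot9 (0.50, adjusted p = 0.635), listed as Rqcd1, and Cnot11 (0.55, adjusted p = 0.269) were not called.

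Of the relatives of Btg4, Tob2 rose from 18.3 to 93.3 CPM (log2 fold change 2.34, adjusted p = 0.0069) and Btg1 fell from 104 to 45.8 CPM (-1.19, adjusted p = 0.0421). The groups overlapped for both, with Tob2 at 8.28 to 35.8 CPM in control and 23.9 to 174 in mutant oocytes. Btg1 was at 44.8 to 120 CPM in wt/wt oocytes, 203 in C3 and 31.8 to 66.8 in mutant oocytes. Tob1 was also called higher (adjusted p = 0.00314), with 1 count over the 5 control oocytes and 142 over the 5 mutant oocytes, of which 0 to 112 were in a single oocyte. Btg2 was at 9.48 and 7.75 CPM (-0.28, adjusted p = 0.676), and Btg3, with 2 counts, was not tested. Like Btg4, the TOB proteins bind the CAF1-type nucleases.

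Of 8 genes tested on the list of other deadenylases and their partners, 2 fell (25% called, beside 25.9% of all genes tested). Pan3, the partner of the nuclease PAN2 that trims long tails, fell from 235 ± 52.1 to 69.6 ± 21.9 CPM (SD, n = 5 each; log2 fold change -1.75, adjusted p = 0.00272), with no overlap of the groups. Noct, listed as Ccrn4l and related in sequence to the CCR4-type nucleases, fell from 962 to 429 CPM (-1.16, adjusted p = 0.0182). Of 16 RNA-binding proteins tested that bring the complex to mRNAs, 5 fell and 1 rose (37.5% called, beside the same 25.9%). Nanos1 fell from 50.9 to 10.2 CPM (-2.29, adjusted p = 0.00167), and Rc3h1 (-1.39, adjusted p = 0.0121), Cpeb3 (-1.24, adjusted p = 0.0180), Nanos2 (-1.80, adjusted p = 0.0333) and Pum2 (-1.04, adjusted p = 0.0369) fell as well. Samd4b, a homologue of the fly repressor Smaug, rose from 11.2 to 33.2 CPM (1.54, adjusted p = 0.0366). For Samd4b, C3 was at 26.1 CPM, within the mutant range of 20.5 to 38.9, while wt/wt oocytes had 3.44 to 14.3. The groups overlapped for Nanos2 and Pum2 as well.

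Downstream of deadenylation, decapping and 5′ to 3′ decay had 5 genes that rose and 1 that fell of 18 tested (33.3% called, beside 25.9% of all genes tested). Lsm4 (log2 fold change 4.13, adjusted p = 0.00132), Lsm5 (2.05, adjusted p = 0.00404) and Lsm2 (2.15, adjusted p = 0.0175, with overlap of the groups) encode subunits of the LSM ring, which binds shortened tails and also takes part in splicing. The other subunits listed were not called and lay on both sides of 0. They were Lsm1 (-0.95, adjusted p = 0.0661), Lsm7 (-0.05), Lsm3 (0.78) and Lsm6 (1.19). Edc4, an enhancer of decapping, rose from 174 to 774 CPM (2.15, adjusted p = 0.0040), and Eif4enif1, which binds eIF4E, was higher by 1.40 (adjusted p = 0.0423), with 14002 of the 18159 mutant counts in 1 oocyte and overlap of the groups (250 to 371 CPM in control and 264 to 2125 in mutant oocytes). Lsm14a, a protein of P bodies, fell from 1487 to 620 CPM (-1.26, adjusted p = 0.0132). In the exosome list of 13 tested (23.1% called), Exosc7 (1.67, adjusted p = 0.0190) and Exosc1 (2.91, adjusted p = 0.0270) rose and Exosc10, a nuclease of the exosome, fell (-1.64, adjusted p = 0.0138). The groups overlapped for Exosc7 and Exosc1, and for Exosc7 C3 lay within the mutant range (25.7 CPM, beside 16.9 to 114 in mutant oocytes). Of 8 genes tested for proteins that bind poly(A) tails or their binding proteins, 1 was called (12.5%), the cytoplasmic Pabpc4 (1.52, adjusted p = 0.0286). For Pabpc4, C3 was at 75.8 CPM, within the mutant range of 44.4 to 161, while wt/wt oocytes had 14.3 to 41.4. Of 8 nucleotidyl transferases tested, 1 was called (12.5%), the poly(A) polymerase Papola, which fell from 345 to 162 CPM (-1.09, adjusted p = 0.0271).

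**Figure D5:**
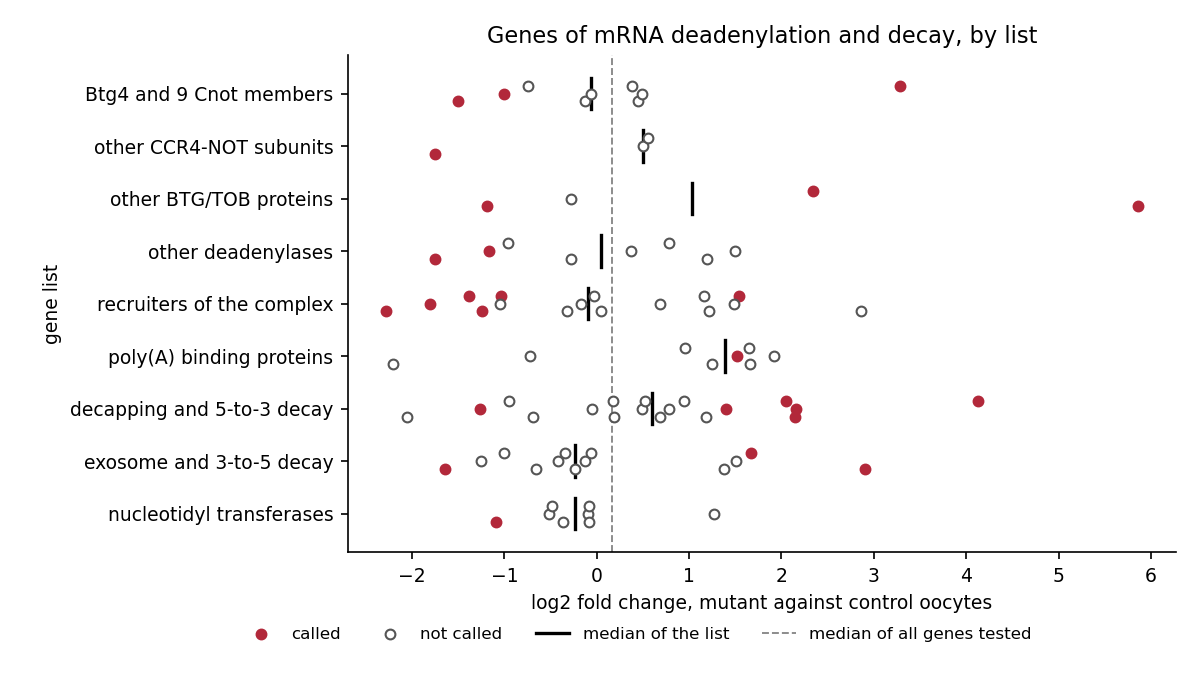
Log2 fold change (mutant minus control) for each gene tested of the members and of 8 lists of deadenylation and decay genes (filled where called), with the median of each list and, as a dashed line, of all genes tested (0.17). Called genes lie on both sides among the members and in 4 of the 8 lists, and the point farthest to the right is Tob1, with 1 count over the control oocytes.

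The 5 genes whose log2 CPM followed that of Btg4 most closely over the 10 oocytes were Pias1 (Pearson r = 0.97), Prkar2a (0.96), E330011O21Rik (0.93), Dlgap4 (0.93) and Chd8 (0.93). Each had its highest level in C3, as Btg4 did, and these values describe 10 oocytes whose order is set mainly by wt/wt against all others. Pias1, for instance, was at 4.42 to 16.4 CPM in wt/wt oocytes, 186 in C3 and 37.7 to 94.0 in mutant oocytes. Among the members tested, r with Btg4 ran from -0.59 for Cnot6 to 0.63 for Cnot3.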

How the data were processed

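Whole single oocytes were lysed and their cDNA was primed on poly(A). The authors deposited raw counts by RefSeq gene. The authors discarded reads rich in A and T or of low quality, aligned the rest to mm10 with TopHat (2.0.6), kept unique best alignments and counted them with HTSeq (version 0.5.3p9 in the submitters' processing notes). Strand handling is not given in the sources used here. All 14 columns were mapped to libraries by name. One column writes 3C for C3. Libraries sharing an oocyte name were summed.

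Mutant oocytes were set against controls with edgeR 4.0.16 under R 4.3.3 (TMM, glmQLFit, glmQLFTest), with arm as the only term, over the 9198 genes kept as the top 60% by total count of 15432 with a count, following the filter of the study. The fit was also run on counts simulated with the same dispersion for all genes and an effect of arm alone. Strain and library series were not simulated, so that run cannot speak to their part in the calls. Ratios had 0.5 added to each count and were tested by exact permutation. Transcripts, coordinates and lengths came from GENCODE on GRCm38. The alternatives were library totals, upper-quartile scaling, DESeq2 1.42.0 and its size factors, limma voom 3.58.1, other filters, each library as a sample with and without a block, other control groups, thinned counts, a pseudocount of 2, whole transcript lengths and leaving out each oocyte.

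The members and lists were chosen with earlier results of these data known. The text names all members, Kdm1a, up to 4 called genes of smallest p per list, each gene in lists of 5 or fewer, and the 5 genes most like Btg4. Samd4b, Pum2, Lsm2, Eif4enif1 and Leng1 were named after their values were seen. No protein sequence was used here.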

Additional observations from a re-analysis of the deposited data

Results flagged for a closer look

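The Btg4 level in C3 stood apart from those of the other control oocytes. The gap to the nearest of them was 0.781 of the range of the 5 controls, above Dixon's critical value of 0.71. C3 had 4459 CPM and the wt/wt oocytes 1134 to 1862.

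The log2 ratio of Cnot6 plus Cnot6l to Cnot7 plus Cnot8 in C3 stood apart in the same way, with a gap of 0.720 of the range. The ratio was 0.270 in C3 and 0.412 to 0.485 in the wt/wt oocytes. Of 37 sets of values examined, 2 passed, where about 1.85 would by chance, at 1 in 20.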

How the results depend on the processing

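No member's called change reversed, and of 198 log2 fold changes of members under 22 alternatives 181 kept their call, 14 of the 17 others being Cnot6l. Using wt/wt oocytes alone as control is the same fit as leaving out C3 and was counted once. Of the 14 losses of Cnot6l, 5 had an adjusted p under 0.05 and missed on size. With the f/f oocyte alone as control, 0 members were called (3 genes of the whole table by edgeR), and a lone control is assumed there to vary like the mutant oocytes. Members called were otherwise 2 to 4. Btg4 lay above 0 in 21 of 22 alternatives.

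The replicate numbers of the labels only name libraries. Same-numbered control and mutant libraries deviated with correlations of -0.13 to 0.09, and with the number as a block the log2 fold change of Btg4 was 0.17 and that of Cnot6l -1.17 (adjusted p = 0.0929), with 2 members and 966 genes called, against 2 and 2886 with each library a sample and no block.

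With wt/wt oocytes alone as control, 36 decay genes (and 2885 of 9166 genes tested) were called and Cnot6l to Cnot6 differed by 0.61 (log2, adjusted exact permutation p = 0.0298). With each library as its own sample, Cnot7 to Cnot8 differed by 0.56 (adjusted permutation p = 0.0341). With 1 library per oocyte, Btg4 to Cnot7 (0.69) and Btg4 to the 9 Cnot genes (0.90) missed the threshold. Leaving out each oocyte gave 14 to 36 called decay genes (14 without D1, 15 without wt3 or wt4, 36 without C3), 4 to 7 neighbours apart in level, and log2 differences of 0.37 to 0.61 for Cnot6l to Cnot6, 0.40 to 0.79 for Cnot7 to Cnot8, -1.05 to -0.84 for CCR4 type to CAF1 type, 0.59 to 0.87 for Btg4 to Cnot7 and 0.76 to 1.11 for Btg4 to the 9 Cnot genes. The cause was not tested. At these depths, Cnot10 is limited by counting.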
